A study of Mus musculus with 10 samples.

Results

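The genes described here are 7 acute phase and neutrophil-associated genes, S100a8, S100a9, Lcn2, Saa3, Slpi, Hp and C3, read by symbol from the 24421 genes of a table of raw counts. All 7 had counts and all 7 passed the filter on low counts, which left 13688 genes for testing. RNA came from a piece of the pancreas tail of female mice aged 12 weeks, and each of the 10 libraries came from a different mouse. The mice carried Ptf1aCreER, a Cre recombinase under the control of the acinar gene Ptf1a that acts once tamoxifen is given, and nTnG, a nuclear fluorescent reporter. The insulin receptor gene, Insr, sets the groups apart. The 3 libraries labelled WT had the genotype Insr w/w with 0 floxed alleles, the 3 labelled Het had Insr w/f with 1, and the 4 labelled KO had Insr f/f with 2. A protocol label counts 4 WT mice, of which 3 were analysed here. Cre acts only where Ptf1a was active, whereas the tissue pieces also held duct, islet, stromal and blood cells. Libraries are named by label and mouse number, as in WT-2404.

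The acute phase response is the change in secreted proteins that follows tissue injury or infection, driven by interleukin-1, interleukin-6 and tumour necrosis factor. Haptoglobin, complement C3 and the serum amyloid A proteins come mostly from the liver during a systemic response, but epithelial cells, fibroblasts and macrophages of an injured organ make several of these proteins too. S100a8 and S100a9 are abundant in the cytoplasm of neutrophils, and lipocalin 2 was first found in neutrophil granules and is also made by stressed epithelium, including that of the inflamed pancreas.

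In the GRCm38 (mm10) annotation of GENCODE, S100a8 lies on the plus strand at chr3:90668978-90670035 and S100a9 on the minus strand at chr3:90692632-90695721, close neighbours in the S100 cluster. The other 5 genes lie on minus strands, Lcn2 at chr2:32384633-32388252, Slpi at chr2:164354070-164389095, Saa3 at chr7:46711998-46715700, Hp at chr8:109575128-109579172 and C3 at chr17:57203970-57228136. The Slpi interval also holds Mir7678 on the same strand. The upstream sequence of 6 of the 7 genes was found in RefSeq's promoter table for GRCm38.p6, and Hp had no entry. RefSeq starts differ from the GENCODE ones in part, so the windows of Lcn2 and Slpi lie inside the GENCODE gene intervals and those of S100a8 and Saa3 overlap them. The 250 bases before each RefSeq start were searched on both strands for 3 motifs of regulators known from acute phase genes. A C/EBP-like motif, TTGCNNAA, was found upstream of S100a9, Lcn2, Saa3, Slpi and C3, and 9.56% of 32851 mouse promoters of the same length held it. A kappa-B-like motif, GGGA and CC with any 4 bases between them, stood 3 times upstream of C3, and 17.6% of promoters held it at least once. No STAT-like motif, TTCNNNGAA, was in the 6 windows, against 7.02% of promoters, and the S100a8 window held none of the 3. These matches are letters in a window and describe no binding. The windows of S100a9 (chr3:90695722-90695971), Saa3 (chr7:46715677-46715926) and C3 (chr17:57228137-57228386), all on the minus strand, are printed to show the C/EBP-like match far from the start in S100a9, closer in Saa3, and beside kappa-B-like matches in C3. Motif matches are in capitals and each sequence reads 5′ to 3′ towards the start.
S100a9: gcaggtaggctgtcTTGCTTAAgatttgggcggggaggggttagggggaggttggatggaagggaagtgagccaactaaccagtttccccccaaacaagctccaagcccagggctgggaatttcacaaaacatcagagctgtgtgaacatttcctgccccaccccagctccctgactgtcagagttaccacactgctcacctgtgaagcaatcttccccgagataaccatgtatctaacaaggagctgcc
Saa3: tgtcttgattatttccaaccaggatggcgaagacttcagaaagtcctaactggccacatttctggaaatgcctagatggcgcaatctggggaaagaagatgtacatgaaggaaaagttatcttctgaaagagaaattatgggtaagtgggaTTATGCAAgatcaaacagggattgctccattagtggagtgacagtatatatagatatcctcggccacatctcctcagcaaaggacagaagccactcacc
C3: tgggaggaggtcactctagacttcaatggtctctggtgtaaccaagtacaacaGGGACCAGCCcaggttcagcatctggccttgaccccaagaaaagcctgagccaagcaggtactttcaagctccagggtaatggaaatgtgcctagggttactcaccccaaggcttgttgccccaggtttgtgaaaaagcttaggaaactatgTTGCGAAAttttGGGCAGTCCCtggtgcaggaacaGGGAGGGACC
The C/EBP-like match spans bases 236 to 229 before the start of S100a9, 99 to 92 before that of Saa3 and 45 to 38 before that of C3. The matches in C3 do not overlap one another.

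The libraries held 11718559 to 19024351 gene counts each. Of all counts, digestive enzyme genes took 16.4% in WT-2404, 61.0% in WT-1860 and 65.3% to 80.5% in the other 8 libraries, and the scaling factor (trimmed mean of M-values, TMM) was 3.53 in WT-2404 against 0.596 to 1.56 elsewhere. WT-2404 thus stands apart from the other libraries, and results are given with and without it. Insr itself did not separate the groups, with 21.0 to 40.5 counts-per-million (CPM) in WT, 28.2 to 44.2 in Het and 22.7 to 35.4 in KO. A gene count does not show whether a floxed exon was removed, and the tissue holds cells without Cre, so Insr counts check the labels only weakly, and WT, Het and KO below mean the labels.

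No gene of the 7 passed the test in any comparison. By edgeR's quasi-likelihood test with Benjamini-Hochberg adjustment over all tested genes, 0 of 7 were called in KO against WT, in Het against WT, in KO against Het, or in the average of Het and KO against WT, and 0% of the 13688 genes were called in each. At an unadjusted p under 0.05, 6 of the 7 were lower in KO than in WT (median of the 7 log2 fold changes -2.22), while 13.9% of all tested genes were. The same 6 were lower in Het than in WT, against 11.6% of all tested genes, and lower in the average of Het and KO, against 16.5%. Between KO and Het 0 of 7 reached that level, with 0.752% of all genes doing so in either direction. These comparisons with WT share the 3 WT libraries. The 7 genes were chosen with earlier results of these data known, so their counts beside these shares do not test them as a set. Without WT-2404, 1 of the 7 was lower and 1 higher in KO than in WT at that level. In that fit 5.29% of all tested genes were lower. The gene outside the 6 was Slpi. DESeq2 called Lcn2 and Hp in each single genotype against WT, where it called 7.48% (KO) and 2.91% (Het) of all genes. It called Lcn2, Saa3, Hp and C3 in the average, with 12.5% of all genes, and gave no p for S100a8 and S100a9 in these 3 comparisons.

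**Figure D1:**
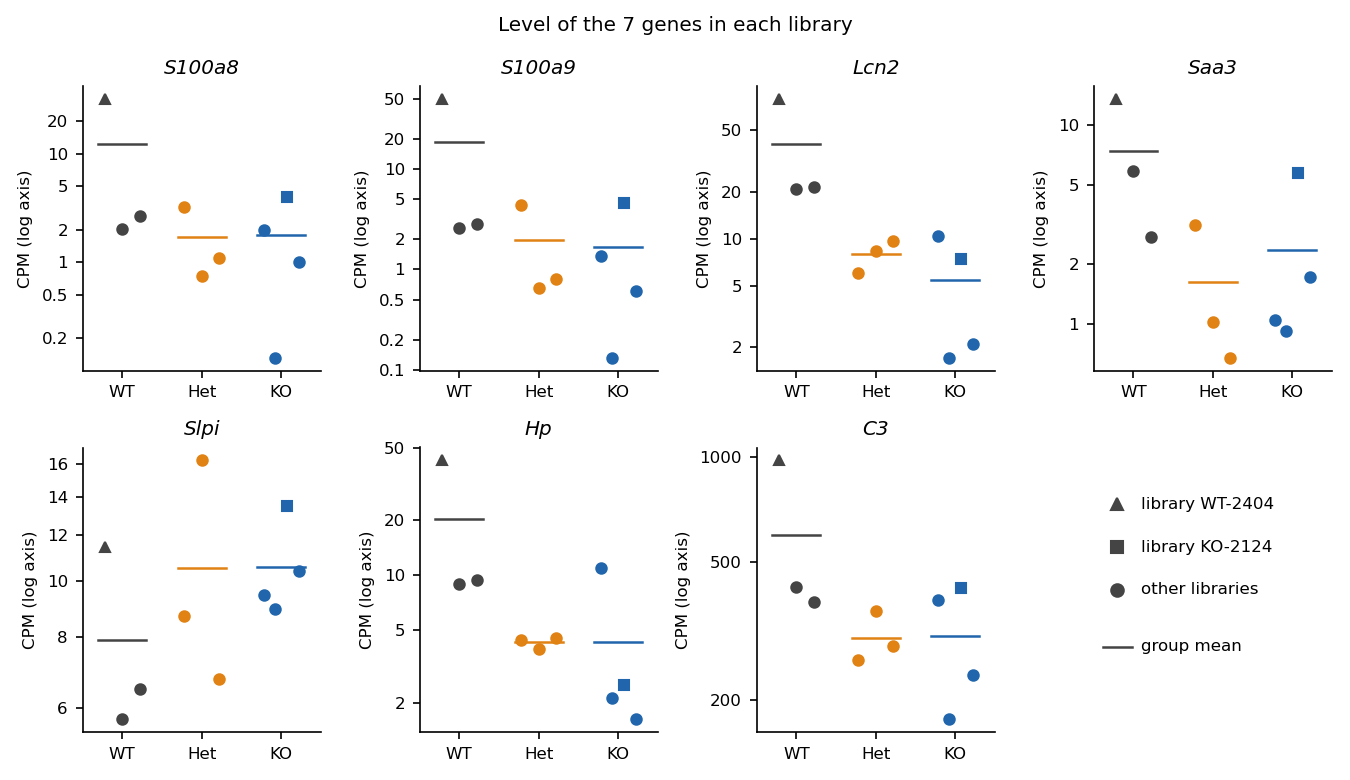
Level of each of the 7 genes in each of the 10 libraries, in counts-per-million on a log axis, with TMM scaling, by Insr label; horizontal lines are group means, the triangle is WT-2404 and the square is KO-2124. WT-2404 is the highest library for every gene but Slpi, and Lcn2 is the gene whose 3 WT libraries all lie above all 7 others.

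S100a8 and S100a9 form calprotectin, which binds calcium and zinc and is released by activated neutrophils and monocytes. S100a8 stood at 31.9 CPM in WT-2404 against 2.02 (WT-1860) and 2.69 (WT-2067), at 3.24, 0.745 and 1.10 in Het-2066, Het-1770 and Het-2042, and at 1.98, 0.132, 3.96 and 1.01 in KO-2079, KO-2070, KO-2124 and KO-2126. A single WT library was far above the rest, and the other WT libraries lay inside the range of Het and KO. The raw counts behind these levels ran from 1 in KO-2070 to 1912 in WT-2404, and the 9 libraries other than WT-2404 held at most 86. The mean was 12.2 ± 17.1 CPM (SD, n = 3) in WT, 1.70 ± 1.35 (n = 3) in Het and 1.77 ± 1.64 (n = 4) in KO, so the SD in WT exceeded its mean. Relative to WT, the log2 fold change in S100a8 was at -2.68 (SE 0.995, edgeR adjusted p = 0.156) for KO and -2.88 (SE 1.14, edgeR adjusted p = 0.212) for Het. Without WT-2404 these became -0.31 (SE 0.80) and -0.47 (SE 0.85). Fewer cells of a type and less RNA per cell cannot be told apart in whole tissue, here or for the genes that follow.

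S100a9, the partner subunit, stood at 49.6 CPM in WT-2404 against 2.57 (WT-1860) and 2.82 (WT-2067), at 4.38, 0.652 and 0.798 in Het-2066, Het-1770 and Het-2042, and at 1.36, 0.132, 4.56 and 0.606 in KO-2079, KO-2070, KO-2124 and KO-2126. The order of libraries was nearly that of S100a8, with KO-2124 and Het-2066 next after WT-2404 and KO-2070 last, and the groups again overlapped. Against WT, the KO log2 fold change of -3.30 (SE 1.15, edgeR adjusted p = 0.140) became -0.56 (SE 0.94) without WT-2404. For Het it was -3.28 (SE 1.31, edgeR adjusted p = 0.215) and became -0.48 (SE 1.01). There were 1.55 counts of S100a9 per count of S100a8 in WT-2404, and 0.600 to 1.35 in the other 9 libraries, some of which held under 10 counts of either gene. Across the 10 libraries the log2 CPM values of the pair had a Pearson r of 0.99 (Spearman rho 0.99), and r was 0.97 over the 9 libraries without WT-2404, the closest pair among the 7 genes. All such correlations describe 10 libraries that share their scaling and their spread in enzyme share.

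Lcn2 encodes lipocalin 2, a secreted protein that withholds iron from bacteria by binding their siderophores. Its level was 79.5 CPM in WT-2404 against 20.9 (WT-1860) and 21.5 (WT-2067), then 6.05, 8.39 and 9.63 in Het-2066, Het-1770 and Het-2042, and 10.4, 1.71, 7.46 and 2.12 in KO-2079, KO-2070, KO-2124 and KO-2126. Every WT library was above every Het and KO library. Group means were 40.6 ± 33.7 CPM (SD, n = 3) in WT, 8.02 ± 1.82 (n = 3) in Het and 5.44 ± 4.25 (n = 4) in KO. Lcn2 was the 1 gene of the 7 with separate ranges in KO against WT, where 9.17% of all tested genes had separate ranges in the lower direction. The same held with the Het and KO libraries pooled, where 5.84% had. The KO level was 7.19-fold lower than WT (log2 fold change -2.85, SE 0.63, edgeR adjusted p = 0.116), and the Het level 5.07-fold lower (-2.34, SE 0.69, edgeR adjusted p = 0.183). The average of Het and KO gave -2.59 (SE 0.53, edgeR adjusted p = 0.0597), while exact permutation of the library labels on mean log2 CPM gave p = 0.00833 (two-sided), the smallest that 3 against 7 libraries allow. The exact permutation p was 0.0571 for KO against WT and 0.1 for Het against WT, where 3 against 4 and 3 against 3 libraries allow 0.0286 and 0.1. With the Het and KO libraries pooled against WT, exact permutation gave p = 0.025 for Hp and 0.05 for Saa3 and for C3. It gave 0.075 for S100a9, 0.0917 for S100a8 and 0.2 for Slpi. These exact p-values are not adjusted for the number of genes or comparisons.

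Without WT-2404 the Lcn2 difference remained lower, at -1.88 in KO (SE 0.55, edgeR adjusted p = 0.504) and -1.38 in Het (SE 0.59, edgeR adjusted p = 0.616). In KO against WT without that library, Lcn2 was the 1 gene of the 7 still lower at an unadjusted p under 0.05, and 5.29% of all tested genes were. Without WT-2067 instead, Lcn2 passed the test in KO against WT (-3.14, edgeR adjusted p = 0.0305), as did 13.6% of all genes tested in that fit.

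Hp encodes haptoglobin, which binds free haemoglobin in plasma. It stood at 42.5 CPM in WT-2404 against 8.96 (WT-1860) and 9.43 (WT-2067), at 4.38, 3.91 and 4.54 in Het-2066, Het-1770 and Het-2042, and at 10.9, 2.11, 2.49 and 1.62 in KO-2079, KO-2070, KO-2124 and KO-2126. The Het libraries were close together and all below WT, whereas KO-2079 lay above WT-1860 and WT-2067 and the other KO libraries below all Het libraries. Hp was 4.64-fold lower in KO than in WT (log2 fold change -2.22, SE 0.70, edgeR adjusted p = 0.126) and 4.78-fold lower in Het (-2.26, SE 0.78, edgeR adjusted p = 0.187). Leaving out WT-2404 gave -1.04 (SE 0.61) and -1.09 (SE 0.65). Leaving out KO-2079 gave -3.28 in KO against WT (SE 0.60, edgeR adjusted p = 0.0957). In the average of Het and KO that omission put Hp past the threshold (-2.77, edgeR adjusted p = 0.0446), where 0.367% of all genes passed. KO-2079 was the KO library with the most Hp, so leaving it out widens the difference by construction. The levels of Hp and Lcn2 had a Pearson r of 0.93 over 10 libraries and 0.86 over 9 (Spearman rho 0.92 over 10), and KO-2079 was the highest KO library for both.

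C3 encodes the central component of complement, cleaved in all 3 complement pathways. It held 81.1% to 93.1% of the counts of the 7 genes in each library. Its level was 980 CPM in WT-2404 against 424 (WT-1860) and 384 (WT-2067), then 261, 362 and 287 in Het-2066, Het-1770 and Het-2042, and 390, 176, 420 and 236 in KO-2079, KO-2070, KO-2124 and KO-2126. The Het libraries were all below WT, while KO-2079 and KO-2124 reached the level of the lower WT libraries. C3 was 1.95-fold lower in KO than in WT (log2 fold change -0.96, SE 0.40, edgeR adjusted p = 0.179) and 1.97-fold lower in Het (-0.98, SE 0.44, edgeR adjusted p = 0.240). Without WT-2404 these became -0.39 (SE 0.35) and -0.40 (SE 0.37). With Lcn2 and Hp, C3 made 3 genes of the 7 whose Het range lay wholly below WT, where 13.5% of all tested genes did.

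Saa3 is the serum amyloid A gene that is expressed mainly outside the liver, in macrophages, fat and inflamed epithelium. It stood at 13.6 CPM in WT-2404 against 5.90 (WT-1860) and 2.76 (WT-2067), at 3.16, 1.02 and 0.675 in Het-2066, Het-1770 and Het-2042, and at 1.05, 0.922, 5.76 and 1.72 in KO-2079, KO-2070, KO-2124 and KO-2126. The groups overlapped, since Het-2066 and KO-2124 lay above WT-2067. Saa3 differed from WT by a log2 fold change of -1.59 in KO (SE 0.72, edgeR adjusted p = 0.210) and -2.24 in Het (SE 0.83, edgeR adjusted p = 0.199). It was -0.79 (SE 0.73) and -1.43 (SE 0.80) without WT-2404, and -2.62 in KO against WT (SE 0.69, edgeR adjusted p = 0.0890) without KO-2124. In the average of Het and KO, Saa3 passed the test when KO-2124 was left out (-2.43, edgeR adjusted p = 0.0498), as did 3.65% of all genes. KO-2124 was the KO library with the most Saa3, so leaving it out widens the difference by construction.

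Slpi encodes a secreted inhibitor of leukocyte elastase and related proteases, made by mucosal epithelium and neutrophils. It stood at 11.5 CPM in WT-2404 against 5.74 (WT-1860) and 6.49 (WT-2067), at 8.68, 16.2 and 6.75 in Het-2066, Het-1770 and Het-2042, and at 9.46, 8.95, 13.5 and 10.4 in KO-2079, KO-2070, KO-2124 and KO-2126. The range was narrow, with the highest library 2.82-fold above the lowest, against 377-fold for S100a9, and Het-1770 and KO-2124 were above WT-2404. Slpi differed from WT by a log2 fold change of 0.41 in KO (SE 0.32, edgeR adjusted p = 0.443) and 0.39 in Het (SE 0.34, edgeR adjusted p = 0.512). Without WT-2404 it became 0.80 in KO against WT (SE 0.32, edgeR adjusted p = 0.510) and 0.79 in Het against WT (SE 0.34, edgeR adjusted p = 0.616). Both had an unadjusted edgeR p under 0.05 and a sign opposite to that of Lcn2. In these fits 9.42% (KO) and 7.87% (Het) of all tested genes reached that level in either direction. Against the other 6 genes, the Pearson r of Slpi lay between -0.17 and 0.18 over the 10 libraries. Over the 9 without WT-2404 it ran from -0.52 with Hp and -0.41 with Lcn2 to 0.01 with C3.

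Between KO and Het the differences of the 7 genes were small beside their errors. The log2 fold change ran from -0.50 for Lcn2 (SE 0.64) to 0.65 for Saa3 (SE 0.80), and it was 0.21 for S100a8 (SE 1.10) and -0.02 for S100a9 (SE 1.30). For C3 it was 0.01 (SE 0.40), for Hp 0.04 (SE 0.74) and for Slpi 0.02 (SE 0.32), and the edgeR adjusted p was 0.9999 for each of the 7. The standard errors of S100a8 and S100a9 exceeded 1 on the log2 scale, so that a several-fold difference in either direction could not be detected.

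**Figure D2:**
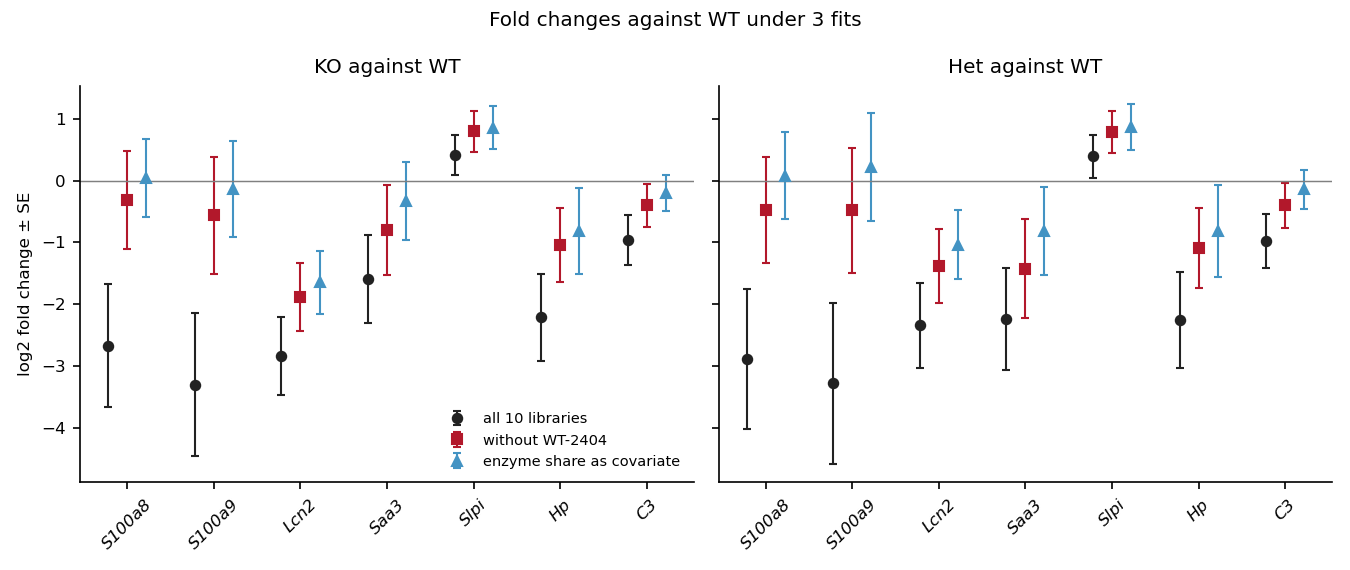
Log2 fold change of each of the 7 genes with its standard error (bars), for KO (left) and Het (right) against WT, from edgeR fits with all 10 libraries (circles), without WT-2404 (squares) and with the digestive enzyme share of each library as a covariate (triangles). S100a8 moves from -2.68 to -0.31 in KO against WT when WT-2404 is left out, and Lcn2 from -2.85 to -1.88.

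With the share of digestive enzyme counts as a covariate, the KO against WT change of S100a8 was 0.05 (SE 0.64) and that of S100a9 was -0.14 (SE 0.78). Under the same fit Lcn2 was at -1.65 (SE 0.51, edgeR adjusted p = 0.877), Hp at -0.82 (SE 0.69), Saa3 at -0.33 (SE 0.63) and C3 at -0.20 (SE 0.29). Slpi was at 0.86 (SE 0.35, edgeR adjusted p = 0.904). The enzyme share was lowest in WT-2404, so the covariate and the omission of that library bear on the same contrast.

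Set per kilobase of exon over the 10 libraries, C3 was the highest of the 7, at 76.2 ± 43.4 CPM per kilobase (SD, n = 10). The length used was the union of all annotated exons of a gene, 522 bases for S100a9, 2606 for Saa3 and 2623 for Lcn2. This union can be longer than the transcript that was present, so the order of the other genes depends on it. S100a9 followed at 12.9 ± 29.0, Slpi at 8.27 ± 2.78, S100a8 at 7.04 ± 13.8, Lcn2 at 6.40 ± 8.79, Hp at 5.65 ± 7.59 and Saa3 at 1.40 ± 1.53. These SDs are spreads between libraries of all groups, and differences between the genes, measured in the same libraries, were not tested. The median per kilobase, which gives WT-2404 less weight, was 72.5 for C3, 7.80 for Slpi, 3.76 for S100a9, 3.43 for Lcn2, 2.88 for S100a8, 2.78 for Hp and 0.858 for Saa3.

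Genes of neutrophils and their precursors were counted beside the members. In KO against WT, 48.2% of all tested genes had a log2 fold change below 0. Of 20 neutrophil markers, 19 were in the table and 7 passed the filter, and all 7 were lower in KO than in WT, 6 at an unadjusted p under 0.05 and 0 past the edgeR threshold (median log2 fold change -2.31, against 0.03 over all tested genes). Without WT-2404 the median was -1.12, with 1 of 7 at an unadjusted p under 0.05. The summed level of the markers was 119 CPM in WT-2404, 13.5 to 16.2 in the other WT libraries, 6.50 to 7.02 in Het and 1.84 to 12.6 in KO. The WT sums thus lay above the others, but only narrowly between WT-2067 (13.47) and KO-2124 (12.63). Taken singly, 2 of the 7 tested markers had KO ranges wholly below WT, against 9.17% of all tested genes. For Het it was 6 of 7, against 13.5%, and for Het and KO pooled 1 of 7, against 5.84%. The part of neutrophils in the levels of S100a8, S100a9 and Lcn2 was not tested.

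Granule genes expressed in neutrophil precursors had most of their counts in WT-2404. Ngp, a neutrophil granule protein, had 2549 counts there (42.6 CPM), 41 in KO-2124 (1.89 CPM) and at most 27 in the other 8. Camp, the cathelicidin, had 687 counts in WT-2404, 20 in KO-2124 and at most 4 elsewhere. Mpo, myeloperoxidase, had 374 counts in WT-2404, 11 in KO-2124 and at most 6 elsewhere, and Elane, neutrophil elastase, had 153 in WT-2404 and at most 3 elsewhere. Markers of mature neutrophils were less uneven. Csf3r, the receptor of granulocyte colony-stimulating factor, stood at 7.88, 6.72 and 2.51 CPM in WT-2404, WT-1860 and WT-2067, at 1.32 to 2.24 in Het and at 0.790 to 3.00 in KO (KO against WT log2 fold change -1.61, SE 0.50, edgeR adjusted p = 0.121). Cxcr2, the receptor of the neutrophil chemokines, had 81 counts in WT-2404 and 16 in Het-2066, which after scaling were alike at 1.35 and 1.40 CPM, and at most 0.765 CPM elsewhere. Retnlg, a neutrophil resistin-like gene, had 239 counts in WT-2404 and 53 in KO-2079, or 3.99 and 3.28 CPM, and at most 1.53 CPM elsewhere.

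Erythroid genes were added after Rhag, an erythroid membrane gene, was seen among the genes most like Saa3. The summed level of 12 such genes, of which the 4 globin genes were listed at 0 in every library, was 145 CPM in KO-2124, 120 in WT-2404, 52.0 in WT-1860 and 4.04 to 36.3 in the other 7. The libraries with the highest S100a8 and S100a9 within WT and within KO were thus also the highest in erythroid genes. Without both of these libraries the KO against WT change was -1.05 for S100a8 (SE 0.75), -1.78 for S100a9 (SE 0.85), -2.05 for Lcn2 (SE 0.67) and -1.81 for Saa3 (SE 0.60). The edgeR adjusted p was 0.233 to 0.479 for these 4 genes. KO-2124 was the highest KO library for S100a8, S100a9 and Saa3, so leaving it out widens their differences by construction. Of all 7 genes, 6 were lower and 1 higher in that fit. At an unadjusted p under 0.05, 2 were lower, against 9.01% of all tested genes. The part of blood cells in the difference was not tested.

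**Figure D3:**
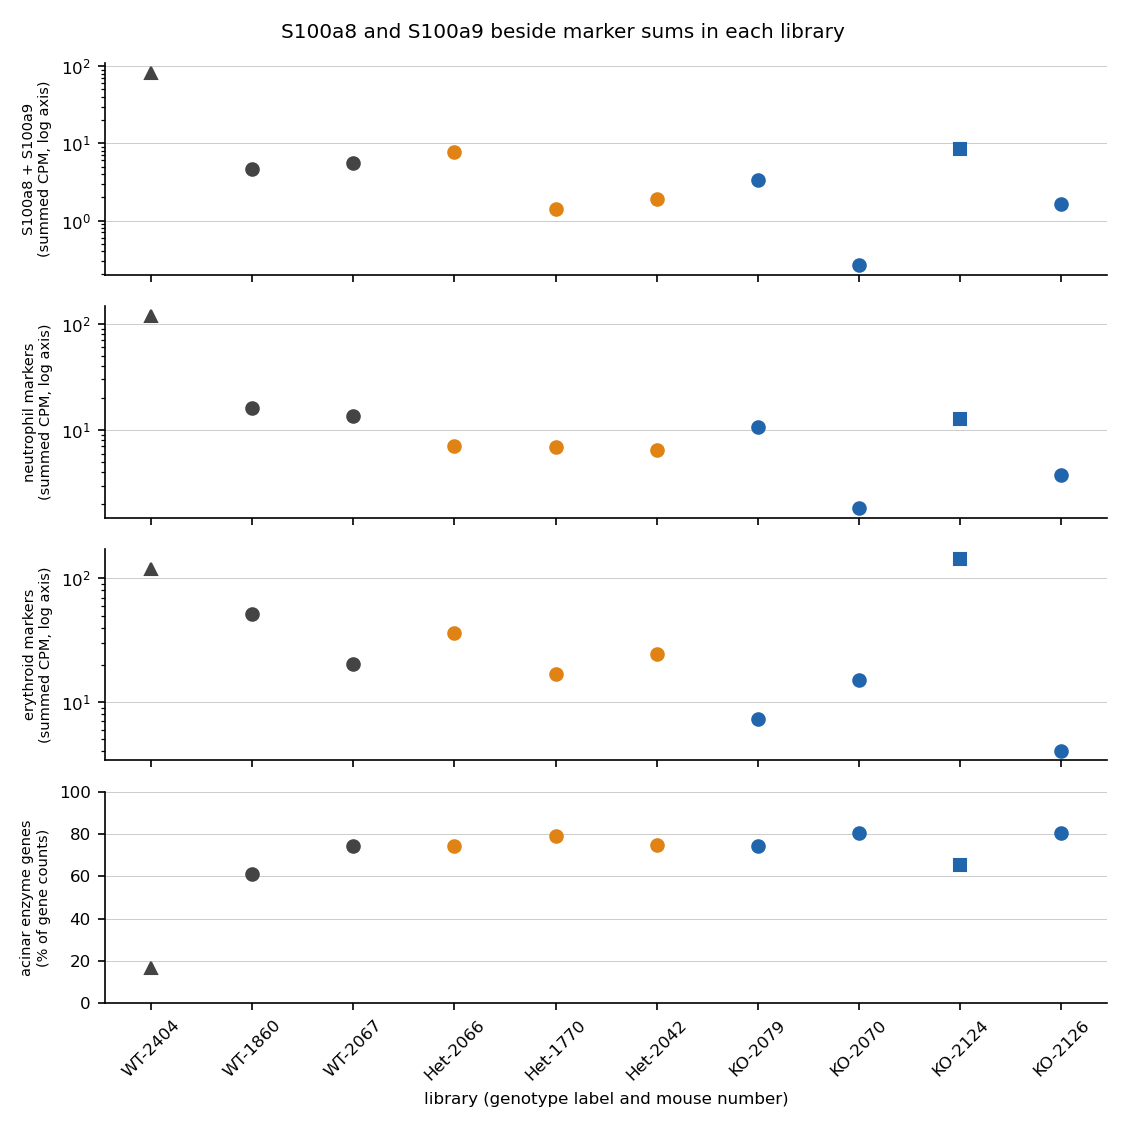
From top to bottom, the summed level of S100a8 and S100a9, of neutrophil markers and of erythroid markers in counts-per-million (log axes), and the digestive enzyme share in percent of gene counts, in each library coloured by label; the triangle is WT-2404 and the square KO-2124. WT-2404 has the highest S100a8 and S100a9 sum (81.5 CPM) and the lowest enzyme share (16.4%), and KO-2124 has the highest erythroid sum.

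Saa1, Saa2 and Fga, acute phase genes expressed mainly in the liver, had few counts. Saa1 had at most 1 count per library and Saa2 had 1 count in all 10 libraries together, where Saa3 had 7 to 813 per library. Fga, a fibrinogen chain, had at most 5 counts. Alb, albumin, the main product of hepatocytes, had 20 to 128 counts, and its highest library was Het-2042. The part of liver RNA in the levels of the 7 genes was not tested. Of 27 other acute phase genes, 15 were tested, and 11 were lower and 4 higher in KO than in WT, with 10 lower and 1 higher at an unadjusted p under 0.05 and 0 past the edgeR threshold (median log2 fold change -1.39). Without WT-2404, 6 were lower and 0 higher at that level (median -1.04). The genes of this list with the smallest p were Il1rn, the interleukin-1 receptor antagonist, at -1.99 (SE 0.49, edgeR adjusted p = 0.116), and Serpina3n, a secreted protease inhibitor, at -2.12 (SE 0.57, edgeR adjusted p = 0.116). In both genes all WT libraries lay above all KO libraries. In the other direction the smallest p belonged to the metallothioneins Mt1 at 0.99 (SE 0.45, edgeR adjusted p = 0.206) and Mt2 at 0.64 (SE 0.52, edgeR adjusted p = 0.463).

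Genes of the inducing signals had smaller median changes than the 7 genes. Of 12 tested cytokines and receptors that induce acute phase genes, 9 were lower and 3 higher in KO than in WT, with 3 and 1 at an unadjusted p under 0.05 and 0 past the edgeR threshold (median log2 fold change -0.22, and -0.23 without WT-2404). The summed level of the 19 genes of this list was 234 to 296 CPM in WT, 298 to 330 in Het and 304 to 393 in KO. WT was lowest by a narrow margin, with WT-2067 at 295.6 and Het-2042 at 297.6. Osmr, the oncostatin M receptor, was at -0.85 (SE 0.22), Il1a, interleukin-1 alpha, at -2.16 (SE 0.79), and Lifr, the leukaemia inhibitory factor receptor, at 0.96 (SE 0.31), each with WT and KO ranges apart and edgeR adjusted p of 0.116, 0.146 and 0.125. Il22ra1, a subunit of the interleukin-22 receptor, was at 1.11 (SE 0.50, edgeR adjusted p = 0.214). Lifr had means of 73.2 CPM in WT, 125 in Het and 142 in KO, and Il22ra1 of 25.0, 46.8 and 53.5. These abundant receptors weigh heavily in the sum, which therefore does not describe the 9 genes that were lower. Of 11 tested transcription regulators, 7 were lower and 4 higher, with 4 lower at an unadjusted p under 0.05 and 1 without WT-2404 (median -0.30 and -0.13). Socs3, a feedback inhibitor of interleukin-6 signalling, was at -0.94 (SE 0.26, edgeR adjusted p = 0.116) and Nfkb2, a subunit of NF-kappaB, at -0.70 (SE 0.24, edgeR adjusted p = 0.133), while Nfkbia, its inhibitor, was at 0.42 (SE 0.23) and Cebpd at 0.32 (SE 0.32). Of 7 neutrophil chemoattractants 3 were tested, all lower, 2 at an unadjusted p under 0.05 and 0 without WT-2404. Of these Cxcl5 stood at 1.29 to 3.77 CPM in WT, 0.373 to 1.04 in Het and 0.202 to 1.01 in KO, with WT above the others (KO against WT -1.80, SE 0.57, edgeR adjusted p = 0.124). Csf1, a macrophage growth factor counted in the same list, was at -0.76 (SE 0.34, edgeR adjusted p = 0.209).

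Receptors of the secreted products and relatives of the 7 genes were mostly lower in KO than in WT as well. Of 12 tested receptors, 11 were lower and 5 were so at an unadjusted p under 0.05 (median -1.21), against 3 of 13 tested without WT-2404 (median -0.77). Among them Tlr4, a receptor of S100a8 and S100a9, was at -1.26 (SE 0.31) and Itgb2, the beta chain of complement receptor 3, at -1.34 (SE 0.37), with an edgeR adjusted p of 0.116 for each, and the 1 receptor that was higher was Lrp2, which takes up lipocalin 2, at 0.82 (SE 0.64). Of 23 tested complement genes other than C3, 20 were lower, 12 at an unadjusted p under 0.05 (median -1.14); without WT-2404 these were 19, 4 and -0.69. The inhibitor Serping1 was at -1.09 (SE 0.30, edgeR adjusted p = 0.116), while Vtn was at 1.18 (SE 0.64) and Cfd at 0.80 (SE 0.57). All 9 tested S100 genes other than S100a8 and S100a9 were lower, 6 at an unadjusted p under 0.05 and 2 without WT-2404 (median -0.88 and -0.65), with S100a11 at -1.60 (SE 0.35) and S100a14 at -2.23 (SE 0.63, edgeR adjusted p = 0.116 and 0.117). No gene of these lists passed the edgeR threshold, and median changes read against 0.03 over all tested genes.

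**Figure D4:**
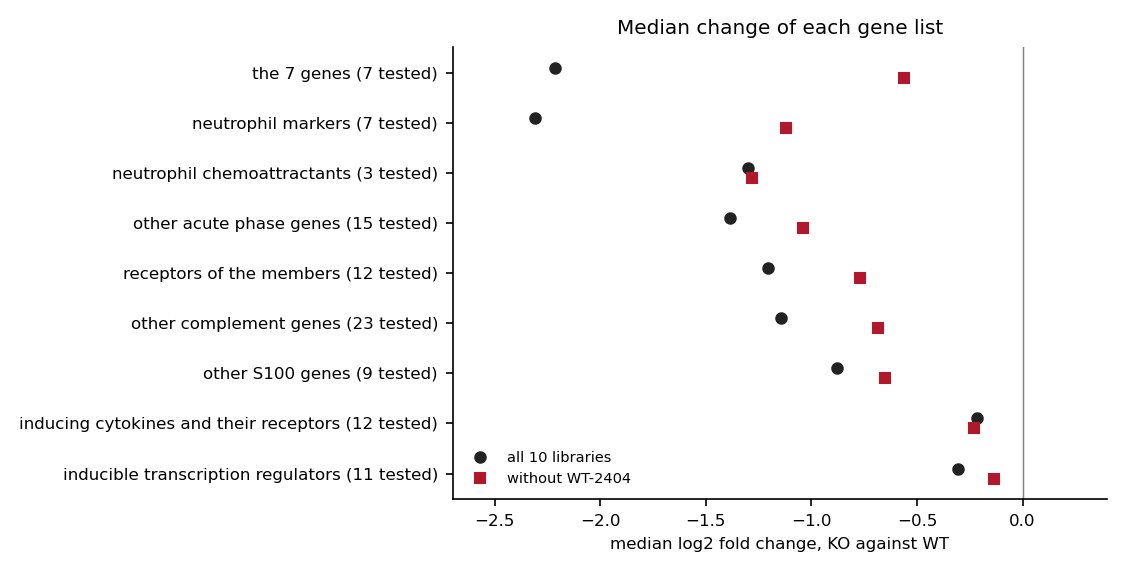
Median log2 fold change in KO against WT of the 7 genes and of 8 lists of related genes, with all 10 libraries (circles) and without WT-2404 (squares); the number tested with all libraries is in parentheses. The median of the 7 genes moves from -2.22 to -0.56 without WT-2404, and that of the neutrophil markers from -2.31 to -1.12.

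Markers of other cells moved with the same contrast. All 10 macrophage markers were lower in KO than in WT, 8 at an unadjusted p under 0.05 (0 without WT-2404), led by Fcgr1 at -1.82 (SE 0.57) and Cd68 at -1.87 (SE 0.58), and their summed level was 329 to 1293 CPM in WT, 187 to 266 in Het and 106 to 390 in KO. Of 10 fibroblast markers 9 were lower, 7 at an unadjusted p under 0.05 (also 7 without WT-2404), with sums of 1302 to 4513 CPM in WT, 527 to 1013 in Het and 461 to 1160 in KO, so WT lay apart. Among them Lum was at -1.70 (SE 0.36), Col1a1 at -2.57 (SE 0.62) and Dcn at 0.00 (SE 0.24). Of 16 duct and metaplasia markers 13 were lower, 8 at an unadjusted p under 0.05 (5 without WT-2404), among them Sox9 at -0.93 (SE 0.22) and Krt7 at -1.97 (SE 0.46), each with an edgeR adjusted p of 0.116. All 9 lymphoid markers were lower, 3 at an unadjusted p under 0.05 (2 without WT-2404), with Ptprc, the pan-leukocyte gene, at -1.27 (SE 0.40). All 32 tested digestive enzyme genes were higher (median 1.18, and 0.63 without WT-2404), but only 3 at an unadjusted p under 0.05 (1 without WT-2404). Islet markers were higher in 6 of 7, adipocyte markers in 6 of 7 and mesothelial markers in 4 of 6, with the same counts without WT-2404, while hepatocyte markers were higher in 5 of 6 (median 0.38) and in 3 of 6 without it (median 0.01). The part of these cell types in the levels of Lcn2, C3 and the other members was not tested.

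The genes whose log2 CPM followed each member most closely over the 10 libraries differed between the members. C3 was most like Cd68, a macrophage lysosomal protein (Pearson r 0.99, and 0.97 over the 9 libraries without WT-2404), Mmp19, a metalloproteinase (0.99 and 0.97), and Fbln1, a matrix protein (0.98 and 0.96). Lcn2 was most like Tmem176a (0.98 and 0.97), the lysosomal protease gene Ctss (0.98 and 0.96) and the complement factor gene Cfb (0.98 and 0.96). Hp was most like Cblc (0.99 and 0.98), Dscr3 (0.97 and 0.93) and Emilin1 (0.96 and 0.91). S100a9 was most like Eif2ak2, the kinase that senses double-stranded RNA (0.97 and 0.92), Rbl1 (0.96 and 0.96) and Ngp (0.95 and 0.87).

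For S100a8 the nearest genes were Eif2ak2 (0.95 and 0.89), Spire1 (0.95 and 0.88) and Tm7sf3 (0.95 and 0.90). For Saa3 they were Lats2 (0.96 and 0.94), Rhag (0.96 and 0.94) and Tgfb1i1 (0.94 and 0.90), where Rhag had under 1 CPM on average. Slpi had the loosest neighbours, Gas1 (0.91 and 0.91), Fgf1 (0.87 and 0.88) and Rspo1 (0.85 and 0.88). These genes were picked as the highest of 13681 candidates, and the median r over all candidates lay within 0.05 of 0 for each member.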

How the data were processed

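Total RNA of frozen, pulverised pancreas tail was isolated with a column kit, per the labels' protocols, and the authors deposited 1 table of raw counts per gene symbol. The submitters' processing notes name mm10, DRAGEN, STAR and Cufflinks, with no roles. Which tool counted, and whether strand was used, is not given in the sources used here. All 10 columns matched a sample by genotype and mouse number, and 2 entries that name no gene stayed out, of which reads outside genes made up 2.59% to 8.71% of counts. Separate mice gave the libraries. A further part of the genotype, shared by all groups, and 1 named gene's values are not reported here.

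Counts were tested with edgeR 4.0.16 (TMM, filterByExpr at a minimum count of 10, robust quasi-likelihood, two-sided, R 4.3.3) in 1 fit over all libraries without covariates. Genes were called at a Benjamini-Hochberg adjusted p below 0.05. SEs are the log2 fold change over the root of the quasi-F statistic. CPM use TMM-scaled library sizes, and log2 CPM a prior count of 2. The script was tested on simulated data. Alternatives were DESeq2 1.42.0, other scalings, no filter, the enzyme share as a covariate and omission of each library. Where 3 counts is taken as the limit that a count of 0 allows, it stood at 0.0501 to 0.395 CPM, covering counting error only. The members and lists were chosen with earlier results of these data known, and the erythroid list and the omission of both WT-2404 and KO-2124 after seeing the data. Named besides the members are the 3 genes most like each, preset neutrophil and liver genes, and per list at most 2 genes a direction by unadjusted p in KO against WT, as none passed. Genes of the lists for enzymes, liver, fat, islets and mesothelium are given by counts only, and of the other lists some are left out.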

Additional observations from a re-analysis of the deposited data

How the results depend on the processing

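Over the alternatives for the 3 comparisons with WT, 348 of 357 values of the 7 genes kept their sign. The refits reuse the same libraries, most keep WT-2404, and the average combines the other comparisons, so agreement in sign is partly built in. Sizes moved more, as with S100a8 in KO against WT, from -2.68 to -0.31 without WT-2404. With total gene counts in place of TMM, the median of all genes shifted by -1.17 in KO against WT, -1.36 in Het against WT and -1.26 in the average of Het and KO against WT. That scaling called 3, 4 and 6 members and 2835, 3125 and 7109 genes, and turned Slpi to -0.93, -1.24 and -1.09; in KO against Het it put S100a9 at 0.34. DESeq2 called 2, 2 and 4 members and 1015, 385 and 1745 genes. Testing every gene with a count gave 8 genes in the average of Het and KO. With the enzyme share as a covariate, S100a8 turned to 0.0456, 0.0821 and 0.0639 in the 3 comparisons with WT, and S100a9 to 0.22 in Het and 0.0403 in the average. In KO against Het that fit gave -0.0365 for S100a8, -0.0132 for Slpi, -0.0051 for Hp and -0.0613 for C3.

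When each library was left out in turn, the members called ranged from 0 to 1 in KO against WT, stayed at 0 in Het against WT and in KO against Het, and ranged from 0 to 6 in the average. The genes called ranged from 0 to 1933, 0 to 1158, 0 to 0 and 0 to 2830 in the same order. The highest values came without WT-2067. In the average, leaving out KO-2079 gave 1 member (Hp) and 50 genes, and leaving out KO-2124 gave 2 members (Lcn2 and Saa3) and 490 genes. KO-2079 was the highest KO library for Hp, and KO-2124 for Saa3. Slpi in Het against WT ranged from -0.0463 (without Het-1770) to 0.79. In KO against Het the ranges crossed 0 for S100a8 (-0.55 to 1.04), S100a9 (-1.26 to 1.35), Saa3 (-0.39 to 1.57), Slpi (-0.23 to 0.47), Hp (-1.02 to 0.30) and C3 (-0.19 to 0.20). Without both WT-2404 and KO-2124 that comparison gave -0.58 for S100a8, -0.38 for Saa3, -0.14 for Slpi and -0.19 for C3. The cause of these moves was not tested. No paired analysis was possible because the mouse numbers differ between the groups. Depth limits S100a8, S100a9 and Saa3 most, which had as few as 1, 1 and 7 counts in a library.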
